A study of Bos taurus with 12 samples.

Results

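KLB, the fibroblast growth factor (FGF) receptors FGFR1, FGFR2, FGFR3 and FGFR4, the ligands FGF2, FGF4 and FGF10, and the feedback inhibitor SPRY2 were followed in bovine embryos before and after the start of elongation. Members were every probe set on the Affymetrix bovine array whose only gene symbol was one of these 9. Of the 9 genes, 8 had such a probe set. FGF4 was not analysed here. They held 24 of the 24016 probe sets tested: 5 each for FGFR2 and FGFR3, 4 for KLB, 3 for FGF10, 2 each for FGFR1, FGFR4 and FGF2, and 1 for SPRY2. Probe sets of a gene are numbered by mean level, from 1 for the highest. KLB was chosen by its measured change with day in embryos of in vivo origin, in an earlier look at these arrays, so its values in every comparison that uses in vivo arrays are given as a description without a test.

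The study compared 2 stages and 2 origins. Day 13 conceptuses of in vitro origin began as blastocysts made by in vitro fertilisation, were placed at Day 7 in the uterus of synchronized heifers, 10 to a recipient, and were flushed out at Day 13. Day 13 conceptuses of in vivo origin came from superovulated donors and went through the same transfer. Day 7 in vitro and Day 7 in vivo blastocysts were frozen without transfer. Each group had 3 pools labelled as biological replicates, with 5 conceptuses in a Day 13 pool and 25 blastocysts in a Day 7 pool, and 75 ng of total RNA from each pool was amplified in 2 rounds and put on 1 array. Both Day 13 groups had therefore spent the same days in a recipient. By design they differed in how the first 7 days were passed and in their donors. Their arrays also differed in control signals, given below. Whole embryos were pooled, so trophoblast, hypoblast and epiblast were measured together, and fewer cells of a type cannot be told apart from less RNA per cell.

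FGF ligands signal through 4 receptor tyrosine kinases, FGFR1 to FGFR4, which recruit adaptors, RAS and the MAP kinases and, in a side branch, phospholipase C gamma. Most ligands need heparan sulphate to bind a receptor. The endocrine ligands FGF19 and FGF21 bind weakly to heparan sulphate and instead need KLB (beta-klotho), a membrane protein that joins ligand and receptor, best known from liver and fat. In the mouse blastocyst, FGF4 from the epiblast acts on FGFR2 in the trophoblast and on receptors of the hypoblast precursors. In cattle, FGF2 from the uterus raises interferon tau output of trophoblast cells.

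Values are the deposited log2 levels. A level of 3.39 or less was called background, a limit below which lay 99% of the readings of 48 control probe sets with no target RNA in the sample. The lowest value in the data, 2.23, was shared by many probe sets. The share of probe sets above background was 41.3% to 42.0% on each of the 12 arrays. The 13 trophoblast markers measured averaged 10.42 to 11.24 per pool among Day 13 in vitro and 9.27 to 9.73 among Day 13 in vivo conceptuses, against 6.94 to 7.69 among Day 7 in vitro and 7.14 to 7.70 among Day 7 in vivo blastocysts. The 12 hypoblast markers averaged 6.81 to 7.52 among Day 13 in vitro and 8.22 to 8.43 among Day 13 in vivo conceptuses, against 7.09 to 7.10 among Day 7 in vitro and 6.72 to 7.00 among Day 7 in vivo blastocysts. At least 10 of the 13 trophoblast and 8 of the 12 hypoblast markers were above background in all 3 pools of each group. The 10 markers of cumulus and granulosa cells averaged 3.90 to 4.08 among Day 13 in vitro and 4.41 to 4.91 among Day 13 in vivo conceptuses, against 3.18 to 3.22 among Day 7 in vitro and 3.23 to 3.63 among Day 7 in vivo blastocysts, with 5 to 7 of them at background in all pools of a group. Among these, FST averaged 8.11 and 9.70 in Day 13 in vitro and in vivo pools, against 2.95 and 3.21 in Day 7 pools. STAR averaged 8.40 and 9.16, against 4.73 and 5.85. TNFAIP6 was above background in all 3 pools of the Day 13 in vivo group only. HAS2 was lower at Day 13, at 7.27 and 7.74 against 7.68 and 8.43. FSHR, CYP19A1, AMH, PTX3 and INHA were at background on all 12 arrays. The trophoblast and the cumulus and granulosa means were higher in each Day 13 pool than in any Day 7 pool, as was KLB below. Their part in the KLB values was not tested. No marker of maternal endometrium was above background in all 3 pools of any group, of 11 measured. Of 9 blood and immune markers, only HBB was, with 7.27 in both Day 7 groups and 2.86 and 2.84 in Day 13 in vitro and in vivo pools. Of 3 epiblast markers, POU5F1 averaged 4.98 and 7.69 in Day 13 in vitro and in vivo pools, against 10.78 and 9.33 at Day 7. CRIPTO averaged 10.03 and 11.32, against 2.98 and 6.47. SOX2 was above background on 2 arrays. Controls set 2 arrays apart. The probe sets for poly-A RNA, which is added to each sample before labelling, averaged 9.27 and 10.50 in Day 13 in vitro pools 1 and 2, against 12.99 to 14.96 in the other 10 pools. The level of the GAPDH 3′ probe set minus that of its 5′ probe set, a usual measure of how far labelled RNA reaches from the 3′ end, was 2.53 and 2.61 in those 2 pools and 2.85 in Day 13 in vivo pool 2, against 3.40 to 5.65 in the other 9 pools.

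Of the 24 probe sets, 7 were above background on at least 3 arrays (29.2%, against 44.1% of all probe sets), 1 on fewer arrays, and 16 on none (66.7%, against 48.5% of all). Those 16 included every probe set for FGFR1, FGFR3 and FGF10. FGFR1, the receptor most often paired with KLB in fat, did not exceed 2.70 on any array. FGFR3 did not exceed 3.14, and FGF10, a mesenchymal ligand of a splice form of FGFR2, did not exceed 2.76. Neither a low amount of these RNAs nor a failing probe can be told from an array level at background. The label of the set as receptors therefore rests here on FGFR2 and, faintly, FGFR4.

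KLB had the largest change with day among the members. It was in the set because of its change in vivo, so this rank is a description and not a result. Its brightest probe set, KLB probe set 1, read 8.03, 8.26 and 9.23 in Day 13 in vitro pools and 9.62, 8.50 and 10.07 in Day 13 in vivo pools. In Day 7 in vitro pools it read 2.27, 2.27 and 2.52, and in Day 7 in vivo pools 2.27, 2.70 and 2.49. All 6 Day 13 pools lay far above background and all 6 Day 7 pools lay at background, with no overlap in either origin. The means were 8.51 ± 0.64 for Day 13 in vitro, 9.40 ± 0.81 for Day 13 in vivo, 2.35 ± 0.14 for Day 7 in vitro and 2.49 ± 0.21 for Day 7 in vivo pools (SD, n = 3 each). In vitro, Day 13 exceeded Day 7 by 6.15 ± 0.42 (log2, SE), with an adjusted p of 0.000109 by limma with Benjamini-Hochberg adjustment over all probe sets. Measured from the background level rather than from the Day 7 readings, KLB was at least 34.7-fold higher in Day 13 in vitro conceptuses than in Day 7 in vitro blastocysts. In vivo, the difference was 6.91 ± 0.42 and KLB was at least 64.3-fold higher at Day 13, the value by which the gene was chosen.

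KLB probe set 2 read 7.52, 7.62 and 6.31 in Day 13 in vitro pools and 6.31, 4.63 and 5.51 in Day 13 in vivo pools. It read 2.23, 2.34 and 2.30 in Day 7 in vitro pools and 2.34, 2.34 and 2.35 in Day 7 in vivo pools. It repeated the split by day without overlap. The increase was 4.86 ± 0.45 in vitro (SE, adjusted p = 0.000531, limma), at least 13.6-fold, and 3.14 ± 0.45 in vivo, at least 4.27-fold. From the in vitro arrays alone the adjusted p of the in vitro increase was 0.0186 (limma). KLB probe set 3 read 3.51, 2.68 and 4.22 in Day 13 in vitro pools and 3.60, 2.63 and 2.95 in Day 13 in vivo pools. It stayed between 2.23 and 2.25 in all 6 Day 7 pools. It passed background on 3 Day 13 arrays, and its in vitro increase of 1.23 ± 0.37 missed the threshold (adjusted p = 0.0914, limma). It passed with the GAPDH measure above as a covariate (adjusted p = 0.0213, limma) and without Day 13 in vitro pool 2 (0.0266). Without pools 1 and 2 the increase was 1.97, from Day 13 in vitro pool 3 alone. Under a background filter the adjusted p was 0.0309. The filter kept this probe set only through its 3 Day 13 arrays above background, so that pass is not support for the increase. KLB probe set 4 was at background on all 12 arrays, with a highest level of 3.17.

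**Figure D1:**
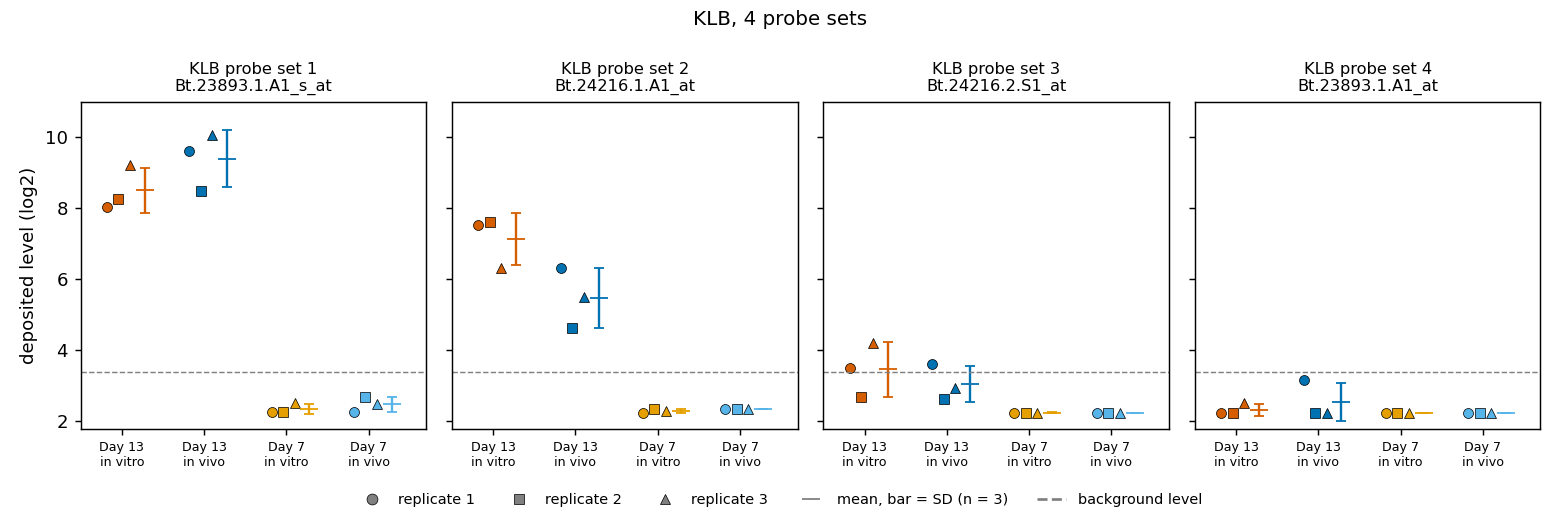
Deposited log2 level (vertical axis) of the 4 KLB probe sets, 1 panel each, in 3 pools of each of 4 groups. Symbols are pools, bars are mean and SD, and the dashed line is the background level of 3.39. In the left 2 panels all 6 Day 13 pools lie above the line and all 6 Day 7 pools below it, and the order of Day 13 in vitro and Day 13 in vivo differs between these panels.

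The 2 bright KLB probe sets gave opposite orders of origin at Day 13. The in vitro minus in vivo difference was -0.89 ± 0.42 on probe set 1 and 1.67 ± 0.45 on probe set 2 (log2, SE). Neither set separated the 3 in vitro from the 3 in vivo pools without overlap or a shared level: 9.23 in vitro lay above 8.50 in vivo on the one, and 6.31 was reached in both groups on the other. Within each array, the level of probe set 1 minus that of probe set 2 was 0.50, 0.64 and 2.93 in Day 13 in vitro pools and 3.31, 3.87 and 4.56 in Day 13 in vivo pools, with means of 1.36 ± 1.36 and 3.91 ± 0.63 (SD, n = 3 each). The signals thus changed unequally between origins, and in vitro pools 1 and 2 stood lowest. These are the 2 pools with the lowest poly-A control signal. With the poly-A mean as a covariate, the origin difference at Day 13 was -0.03 on probe set 1 and 0.58 on probe set 2. Without those 2 pools it was -0.16 and 0.82. By Affymetrix naming, the ending of probe set 1 (_s_at) marks probes shared by several transcripts, and both sets carry different cluster numbers. Whether the 2 sets read the same KLB transcript was not analysed here, and no direction of origin is given for KLB.

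**Figure D2:**
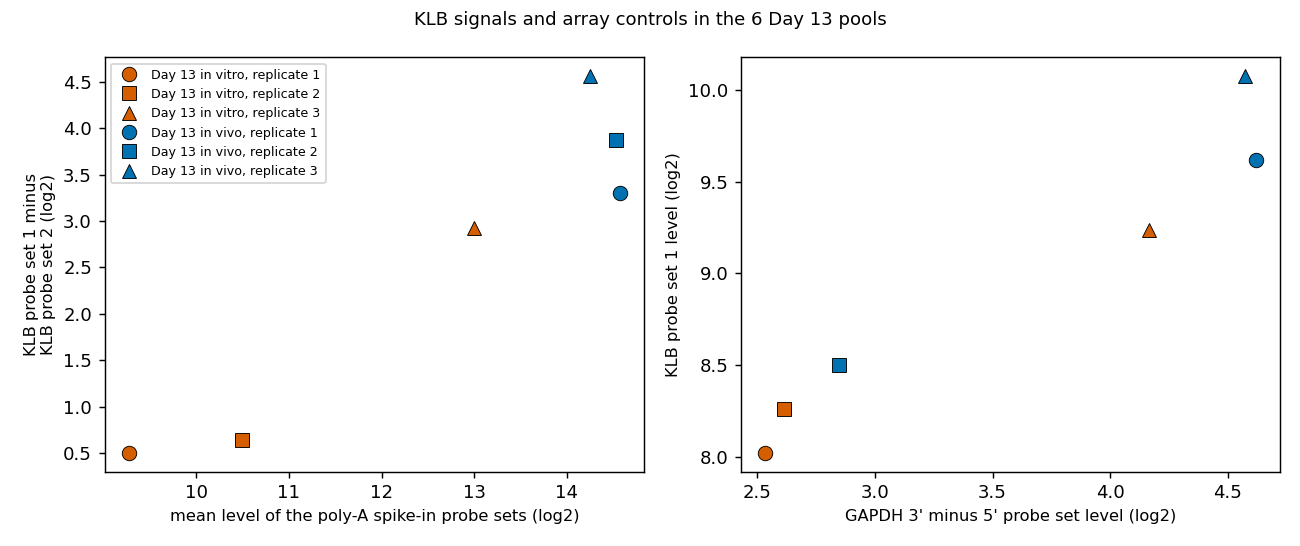
The 6 Day 13 pools, with color for origin and shape for replicate. Left, the level of KLB probe set 1 minus that of probe set 2 (log2) against the mean poly-A control level (log2): the 2 in vitro pools at 9.27 and 10.50 have differences of 0.50 and 0.64, and the other 4 pools have 2.93 to 4.56. Right, the level of probe set 1 (log2) against the GAPDH 3′ minus 5′ difference (log2): the 3 pools at 2.53 to 2.85 have levels of 8.03 to 8.50, and the other 3 have 9.23 to 10.07.

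FGFR2, the receptor of mouse trophoblast stem cells, was the only receptor above background in every group. FGFR2 probe set 1 read 5.49, 5.49 and 7.34 in Day 13 in vitro pools and 7.76, 6.31 and 7.13 in Day 13 in vivo pools. It read 6.31, 5.48 and 6.31 in Day 7 in vitro pools and 6.73, 5.49 and 6.31 in Day 7 in vivo pools. The 4 groups overlapped throughout. The difference between days was 0.08 ± 0.61 in vitro (SE, adjusted p = 1 by limma) and 0.89 ± 0.61 in vivo (adjusted p = 0.568), with 95% intervals of -1.31 to 1.46 and -0.50 to 2.27. The order of the group means was Day 13 in vivo at 7.07, Day 7 in vivo at 6.18, Day 13 in vitro at 6.11 and Day 7 in vitro at 6.03. The in vivo difference of 0.89 was above the SD of either group (0.73 at Day 13 and 0.63 at Day 7), with overlapping pools. The other neighbours in that order differed by less than their SD. Up to 4 arrays gave the same value to 2 decimals, as did 12.8% of the 8598 probe sets above background on all arrays.

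FGFR2 probe set 2 read 5.61, 4.56 and 4.60 in Day 13 in vitro pools and 5.15, 4.03 and 5.36 in Day 13 in vivo pools. It read 4.06, 3.67 and 3.11 in Day 7 in vitro pools and 2.23, 4.15 and 3.40 in Day 7 in vivo pools. In vitro, the 3 Day 13 pools all lay above the 3 Day 7 pools, and in vivo the lowest Day 13 pool lay below the highest Day 7 pool. The difference between days was 1.31 ± 0.57 in vitro and 1.58 ± 0.57 in vivo (log2, SE), with unadjusted p of 0.0483 and 0.0226, and neither passed after adjustment (0.255 and 0.231, limma). With the poly-A mean as a covariate the in vitro difference was 0.43. The other 3 FGFR2 probe sets did not exceed 2.24 on any array, so statements on FGFR2 rest on 2 of 5 probe sets that gave different sizes of change.

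FGFR4, which pairs with KLB in the liver to read FGF19, was measured at a low level. FGFR4 probe set 1 read 2.23 in all 3 Day 13 in vitro pools and 2.44, 2.61 and 2.23 in Day 13 in vivo pools. It read 3.63, 2.52 and 3.55 in Day 7 in vitro pools and 2.90, 2.93 and 4.09 in Day 7 in vivo pools. No Day 13 pool reached background, 3 of 6 Day 7 pools exceeded it, and the days did not overlap within either origin. The differences of -1.0 ± 0.37 in vitro and -0.88 ± 0.37 in vivo (SE) did not pass the test (adjusted p = 0.175 and 0.335, limma). They passed in vitro with array weights (-1.28, adjusted p = 0.00501) and in vivo after centring on ribosomal protein genes (-1.36, adjusted p = 0.0166). The means of all 4 groups lay below the background level, so no fold is given. Its second probe set was at background on all arrays, with a highest level of 2.24.

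FGF2, the best studied FGF of the bovine uterus and trophoblast, appeared in only 2 pools. FGF2 probe set 1 read 2.23, 2.23 and 3.37 in Day 13 in vitro pools and 6.05, 2.28 and 7.66 in Day 13 in vivo pools. It read 2.28 in every Day 7 in vitro pool and 2.23, 2.23 and 2.28 in Day 7 in vivo pools. Day 13 in vivo pools 1 and 3 were the only ones above background, and pool 2 of the same group was at the level of the blastocysts. In vivo, Day 13 minus Day 7 was 3.08 ± 1.13 (SE, adjusted p = 0.244, limma). At Day 13, in vitro minus in vivo was -2.72 ± 1.13 (adjusted p = 0.284). The day effect in vitro minus that in vivo was -2.75 ± 1.60. All of these values depended on 1 pool. Without Day 13 in vivo pool 2 they were 4.61, -4.25 and -4.28, with adjusted p of 0.00272, 0.00766 and 0.0401. With array weights they were 4.42, -4.36 and -4.39, with adjusted p of 0.0168, 0.00701 and 0.0419. That setting gave Day 13 in vivo pool 2 a weight of 0.26, the lowest of the 12 arrays. Both settings thus reduce the part of the same pool and are not separate evidence. The second FGF2 probe set stayed at 2.23 on all 12 arrays.

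SPRY2, a Sprouty protein that FGF signalling induces and that damps RAS activation, was above background in every pool. It read 6.51, 6.43 and 6.73 in Day 13 in vitro pools and 9.11, 5.90 and 7.02 in Day 13 in vivo pools. It read 6.42, 6.97 and 5.14 in Day 7 in vitro pools and 6.91, 7.81 and 6.51 in Day 7 in vivo pools. The groups overlapped, and the widest spread was within Day 13 in vivo, where the mean was 7.34 ± 1.63 (SD, n = 3) against 6.56 ± 0.15 in Day 13 in vitro. The difference between days was 0.38 ± 0.80 in vitro and 0.27 ± 0.80 in vivo (SE), each with an adjusted p of 1. The order of the means was Day 13 in vivo at 7.34, Day 7 in vivo at 7.08, Day 13 in vitro at 6.56 and Day 7 in vitro at 6.18, with no neighbours apart beyond their spread.

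**Figure D3:**
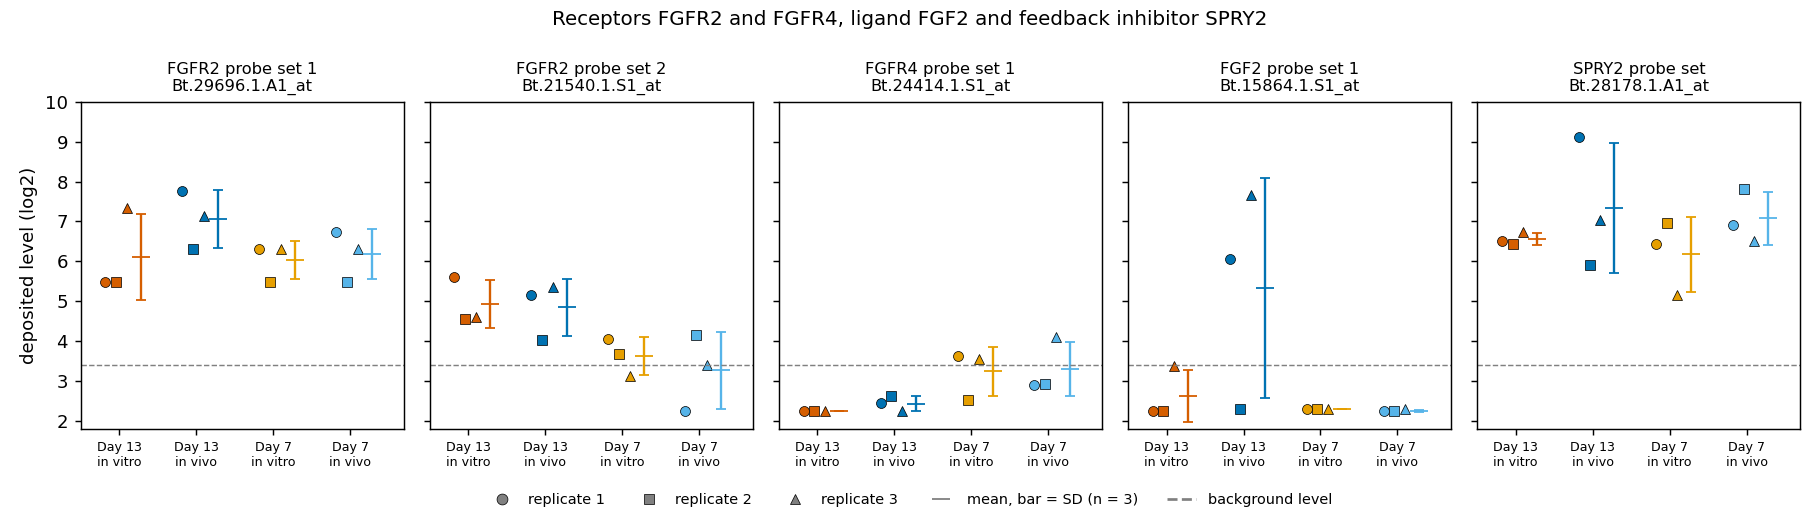
Deposited log2 level (vertical axis) of the probe sets of FGFR2, FGFR4, FGF2 and SPRY2 that exceeded background on any array, 1 panel each, in 3 pools of each of 4 groups, with mean and SD as bars and background as the dashed line. FGFR2 probe set 1 and SPRY2 overlap between groups, FGFR2 probe set 2 separates the days in vitro, FGFR4 lies lower in Day 13 than in Day 7 pools of the same origin, and FGF2 is above background in 2 of 3 Day 13 in vivo pools.

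The brightest probe sets of KLB, FGFR2, FGF2 and SPRY2, picked out after their values were seen, were low in the same 3 Day 13 pools. Each was lower in Day 13 in vitro pools 1 and 2 and in vivo pool 2 than in the other 3 Day 13 pools. For FGFR2 these 3 pools read 5.49, 5.49 and 6.31, against 7.34, 7.76 and 7.13. For SPRY2 they read 6.51, 6.43 and 5.90, against 6.73, 9.11 and 7.02. Other probe sets of KLB, FGFR2 and FGF2 did not share this order. KLB probe set 2 read 7.52, 7.62 and 4.63 in these 3 pools, against 6.31, 6.31 and 5.51, and FGFR2 probe set 2 had its highest value, 5.61, in Day 13 in vitro pool 1. They are the 3 Day 13 pools with the smallest GAPDH 3′ minus 5′ difference. At Day 7 the in vivo pools had the largest GAPDH differences, 5.58 to 5.65, and FGFR2 levels of 5.49 to 6.73 that overlapped those of in vitro pools. With this GAPDH measure taken as a covariate, the difference of KLB probe set 1 with day in vitro was 6.54 (adjusted p = 1.78e-05, limma), that of FGFR2 probe set 1 in vivo was 1.99 (adjusted p = 0.249), and that of FGF2 in vivo was 5.61 (adjusted p = 0.04).

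Counted over the 24 probe sets, 2 were called higher and none lower in Day 13 than in Day 7 in vitro embryos (8.33%), where 7.51% of all probe sets were called and 3.55% were called higher. In vivo the count was also 2 higher and none lower, where 3.79% of all were called and 1.7% were called higher. All of these calls were on the 2 bright KLB probe sets, and the in vivo ones are what the choice of KLB fixed. The comparisons that follow use the in vivo arrays by which KLB was chosen, so they are counted over the 20 probe sets of the other members. Between origins at Day 13, limma called none of the 20, where 1.2% of all probe sets were called, and 1 of them, for FGF2, had an unadjusted p under 0.05. At Day 7 it called none (0.208% of all), and none had an unadjusted p under 0.05. For the day effect in vitro minus that in vivo it called none (0.4% of all), and none had an unadjusted p under 0.05. These differences of day effects for FGFR2, FGFR4, FGF2 and SPRY2 were -0.81 ± 0.86, -0.12 ± 0.53, -2.75 ± 1.60 and 0.11 ± 1.13 (log2, SE). The one for FGF2 passed under the 2 settings given above, which both leave out or down-weight Day 13 in vivo pool 2. By overlap alone, 4 of the 24 probe sets had all Day 13 in vitro pools above all Day 7 in vitro pools (10.4% of all probe sets) and 1 had them below (11.1%). Among the 20 probe sets of members other than KLB, 1 lay above in vitro, for FGFR2, and 1 below, for FGFR4. In vivo 3 of the 24 lay above (6.68% of all), all of them KLB probe sets and so fixed by the choice of KLB. There 1 lay below (8.34%). No member separated the origins at Day 13 (14.7% of all) or Day 7 (9.29%). The median difference over the 24 probe sets was 0 in both day comparisons at 2 decimals, as over all probe sets, since most members sat at the floor.

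**Figure D4:**
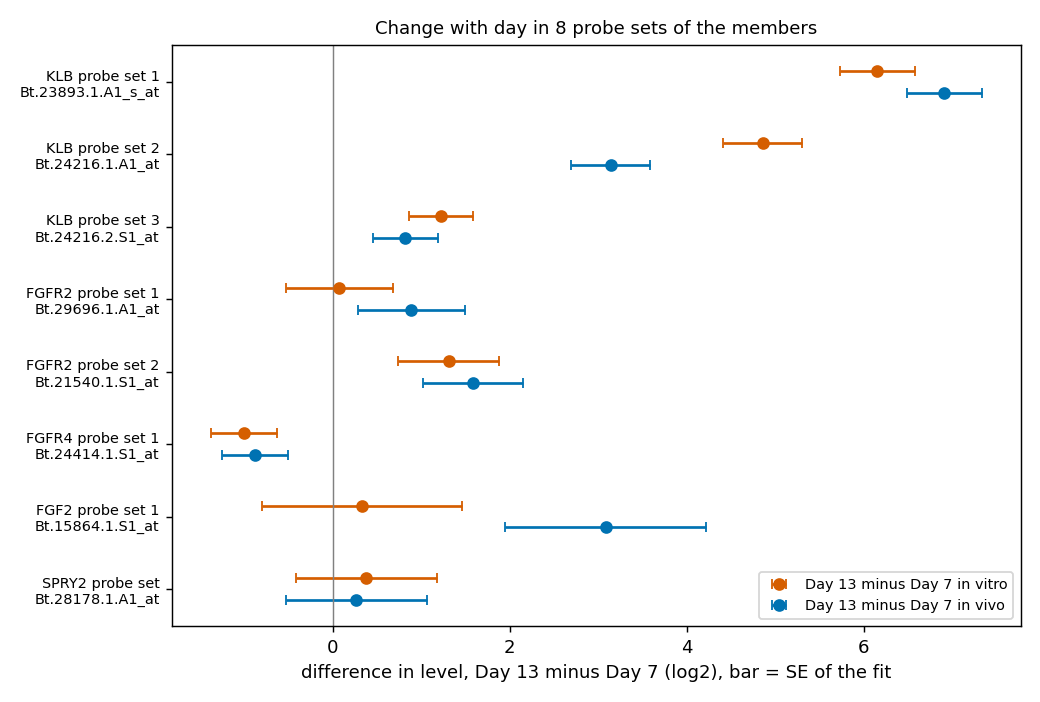
Day 13 minus Day 7 difference (log2, horizontal axis) with the SE of the fit as bars, for 8 member probe sets, in vitro above in vivo for each. The first 2 KLB probe sets lie at 3.14 to 6.91, FGFR4 lies at -1.0 and -0.88, and the bars of SPRY2 cross 0 in both origins.

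The genes whose levels over the 12 arrays ran most like each member's brightest probe set were found among 5710 gene symbols. For KLB they were SELENOK, a selenoprotein of the endoplasmic reticulum (r = 0.99), CA2, a carbonic anhydrase (r = 0.99), and PRSS35, a serine protease-like protein (r = 0.98). CA2 averaged 7.38 for Day 13 in vitro, 7.58 for Day 13 in vivo, 2.34 for Day 7 in vitro and 2.39 for Day 7 in vivo pools, so it was also at background in blastocysts. These correlations describe the split by day. After removal of group means they were 0.07, 0.25 and 0.17. For FGFR2 the most alike were FLT1, a receptor for vascular endothelial growth factor (r = 0.85), RPH3AL (r = 0.84) and MRPS30 (r = 0.84). For FGFR4 they were BBS4 (r = 0.97), ABTB1 (r = 0.97) and ZNF814 (r = 0.95), and for SPRY2 CHURC1 (r = 0.90), SF1 (r = 0.86) and ST3GAL6 (r = 0.86). After removal of group means they were 0.91, 0.78 and 0.79 for FGFR2, 0.95, 0.95 and 0.93 for FGFR4, and 0.90, 0.93 and 0.81 for SPRY2. FGFR4 was above background on only 3 arrays, so most of its values lay at background. All points share the same 12 arrays, and genes are not independent replicates.

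Partners of the members were counted by list, with 1 probe set for each gene, the one with the highest mean. Over all 9155 gene symbols taken this way, 10.8% were called between days in vitro, 5.49% between days in vivo, 1.64% between origins at Day 13, 0.295% at Day 7 and 0.513% for the difference of day effects. Of 19 other FGF ligands, 6 were measured and 5 of them were at background on all arrays. FGF1, a ligand that binds all 4 receptors, was the one measured above background. It read 8.58, 7.78 and 8.58 in Day 13 in vitro pools and 8.22, 5.78 and 8.69 in Day 13 in vivo pools. It read 9.08, 9.58 and 8.13 in Day 7 in vitro pools and 10.29, 10.51 and 9.43 in Day 7 in vivo pools. In vivo, all 3 Day 13 pools lay below all 3 Day 7 pools, and the difference of -2.52 ± 0.75 (SE) had an adjusted p of 0.14 (limma). FGF1 had 12 probe sets, of which 3 were above background on at least 3 arrays and 9 on none. The other 2 bright ones gave -0.70 and 1.06 in the same comparison, so the sets for FGF1 did not share a direction. FGF19 and FGF21, the ligands that use KLB, and KL were not analysed here.

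Of 10 co-receptors and receptor-like proteins, 5 were measured, and 1 was called higher in Day 13 embryos in both origins. That gene was CDH2 (N-cadherin), an adhesion protein of mesenchymal and neural cells that can bind FGFR1. It read 8.35, 8.79 and 9.45 in Day 13 in vitro pools and 10.22, 10.10 and 10.24 in Day 13 in vivo pools. It read 3.54, 3.95 and 3.09 in Day 7 in vitro pools and 4.36, 4.04 and 3.96 in Day 7 in vivo pools. The difference was 5.34 ± 0.29 in vitro (SE, adjusted p = 3.59e-05, limma) and 6.07 ± 0.29 in vivo (adjusted p = 3.03e-05), without overlap. The list's median difference was 0 in vitro and 0.03 in vivo, and CDH2 was its one call.

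Of 26 genes for heparan sulphate proteoglycans and the enzymes that build and trim their chains, 14 were measured and 9 were above background on at least 3 arrays. In vitro, 2 were called lower at Day 13 and none higher. HS6ST1, which adds sulphate at the 6-O position, read 5.16, 4.31 and 8.09 in Day 13 in vitro against 10.95, 10.45 and 10.96 in Day 7 in vitro pools, a difference of -4.93 ± 0.82 (SE, adjusted p = 0.00952, limma). In vivo the HS6ST1 pools read 8.48, 9.23 and 9.23 at Day 13 and 11.15, 10.82 and 10.67 at Day 7, a difference of -1.90 ± 0.82 that did not pass (adjusted p = 0.35). Day 13 was below Day 7 without overlap in both origins. GPC1, a lipid-anchored proteoglycan, read 5.22, 5.58 and 5.53 in Day 13 in vitro against 7.32, 6.89 and 7.32 in Day 7 in vitro pools, a difference of -1.73 ± 0.20 (adjusted p = 0.00178). In vivo, GPC1 read 6.26, 6.84 and 6.27 at Day 13 and 6.27, 6.05 and 6.50 at Day 7, which overlapped. The day effect of GPC1 in vitro minus that in vivo was -1.92 ± 0.29 (adjusted p = 0.0413), the only pathway gene of these lists called for that difference. That call was lost on leaving out any of 6 single arrays, with adjusted p up to 0.11.

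Of 32 adaptors, kinases and GTPases that carry the signal inside the cell, 20 were measured and 18 were above background on at least 3 arrays. In vitro 1 was called higher and 1 lower at Day 13, and in vivo 1 was called lower. PLCG1 (phospholipase C gamma 1), which docks on the activated receptor, read 6.37, 5.99 and 6.56 in Day 13 in vitro against 9.62, 9.93 and 9.75 in Day 7 in vitro pools. In vivo it read 7.34, 6.29 and 7.51 at Day 13 against 8.83, 10.68 and 9.96 at Day 7. It was lower at Day 13 without overlap in both origins, by -3.46 ± 0.47 in vitro (adjusted p = 0.00401, limma) and -2.77 ± 0.47 in vivo (adjusted p = 0.0159, and 0.0506 without Day 7 in vivo pool 3). NRAS, a RAS GTPase, exceeded its Day 7 level by 1.38 ± 0.18 in Day 13 in vitro pools (adjusted p = 0.00335). In vivo its difference of 0.57 ± 0.18 did not pass (adjusted p = 0.176). The list's median difference was -0.33 in vitro and 0.02 in vivo.

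Of 35 feedback inhibitors and transcriptional targets, 18 were measured, 3 were called higher at Day 13 in each origin, and none was called lower. JUN was not among these calls by its brightest probe set. Other JUN probe sets were higher at Day 13 in vitro by 2.08 and 2.27 (adjusted p = 0.0124 and 0.0254, limma). In vivo they gave 0.64 and -0.27, which were not called. MYC, a transcription factor of growth, read 6.90, 7.38 and 6.45 in Day 13 in vitro pools and 5.18, 5.37 and 5.73 in Day 13 in vivo pools. It read 2.65 in all 3 Day 7 in vitro pools and 3.44, 2.65 and 3.34 in Day 7 in vivo pools. It was higher at Day 13 by 4.25 ± 0.28 in vitro (SE, adjusted p = 7.67e-05, limma) and 2.28 ± 0.28 in vivo (adjusted p = 0.00295), at least 11.4-fold in vitro, where the Day 7 pools were at background, and was the one gene of this list called in both. SPRY1, a relative of SPRY2, read 6.59, 5.31 and 3.91 in Day 13 in vitro pools and 3.44, 2.24 and 2.24 in Day 13 in vivo pools. It was at its floor of 2.24 in all Day 7 pools. Its in vitro difference was 3.02 ± 0.60, at least 3.68-fold from the background level (adjusted p = 0.0194, and up to 0.0714 on leaving out 1 array). EGR1, an immediate-early target of the MAP kinases, read 11.21, 10.57 and 10.02 in Day 13 in vitro against 7.06, 6.85 and 4.65 in Day 7 in vitro pools. Its in vitro difference was 4.42 ± 0.88 (adjusted p = 0.0201, and up to 0.0821 on leaving out 1 array). In vivo EGR1 read 8.28, 7.35 and 6.61 at Day 13 and 4.93, 7.00 and 7.71 at Day 7, which overlapped.

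The 2 ETS factors called in vivo are nuclear targets of the MAP kinases, and ETS2 drives the interferon tau promoter in cattle. ETS2 read 10.34, 12.03 and 9.71 in Day 13 in vivo against 5.62, 6.97 and 8.01 in Day 7 in vivo pools, a difference of 3.83 ± 0.74 (SE, adjusted p = 0.0257, limma, and up to 0.0736 on leaving out 1 array). Its second probe set gave 2.10 in vivo (adjusted p = 0.0674) and 2.51 in vitro (adjusted p = 0.0207), the same direction on the other side of the threshold in each origin. ETS1 read 2.27, 2.27 and 2.23 in Day 13 in vitro pools and 3.91, 3.61 and 4.90 in Day 13 in vivo pools. It read 3.13, 2.32 and 2.61 in Day 7 in vitro pools and 2.27 in all Day 7 in vivo pools. Only the Day 13 in vivo pools exceeded background. ETS1 was higher by 1.87 ± 0.32 at Day 13 in vivo (adjusted p = 0.0148), at least 1.68-fold from the background level.

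At Day 13, MYC was higher in in vitro than in vivo conceptuses by 1.48 ± 0.28 (SE, adjusted p = 0.0481, limma) and ETS1 differed by -1.89 ± 0.32 (adjusted p = 0.0324), at least 1.68-fold lower, the 2 calls between origins among these pathway genes. Both sets of pools were without overlap, but the calls were lost on leaving out any of 10 single arrays for MYC (adjusted p up to 0.159) and any of 9 for ETS1 (up to 0.121). The 2 Day 13 in vitro pools with low poly-A signal are in this comparison. Without both of them, MYC differed by 1.02 (adjusted p = 0.467) and ETS1 by -1.91 (adjusted p = 0.266). No gene of these lists was called between origins at Day 7.

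Most pathway calls were lost under at least 1 other setting of the fit. With the poly-A mean as a covariate, 6 of the 8 genes called in vitro lost the call, with adjusted p of 0.103 for GPC1, 0.386 for HS6ST1, 0.182 for NRAS, 0.1 for PLCG1, 0.832 for SPRY1 and 0.597 for EGR1. Their differences kept their sign, at -1.37, -2.46, 1.03, -3.64, 1.24 and 3.46. Without Day 13 in vitro pools 1 and 2, NRAS (1.25, adjusted p = 0.0694), PLCG1 (-3.20, 0.093), SPRY1 (1.67, 0.149) and EGR1 (3.84, 0.331) lost it. In vivo, PLCG1, ETS1 and ETS2 lost the call with the GAPDH measure as a covariate (adjusted p = 0.159, 0.0709 and 0.248), and these 3 and MYC lost it in a fit of the compared arrays alone (0.227, 0.171, 0.258 and 0.0676). CDH2 kept its calls in both origins under each setting tried, as did MYC in vitro.

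**Figure D5:**
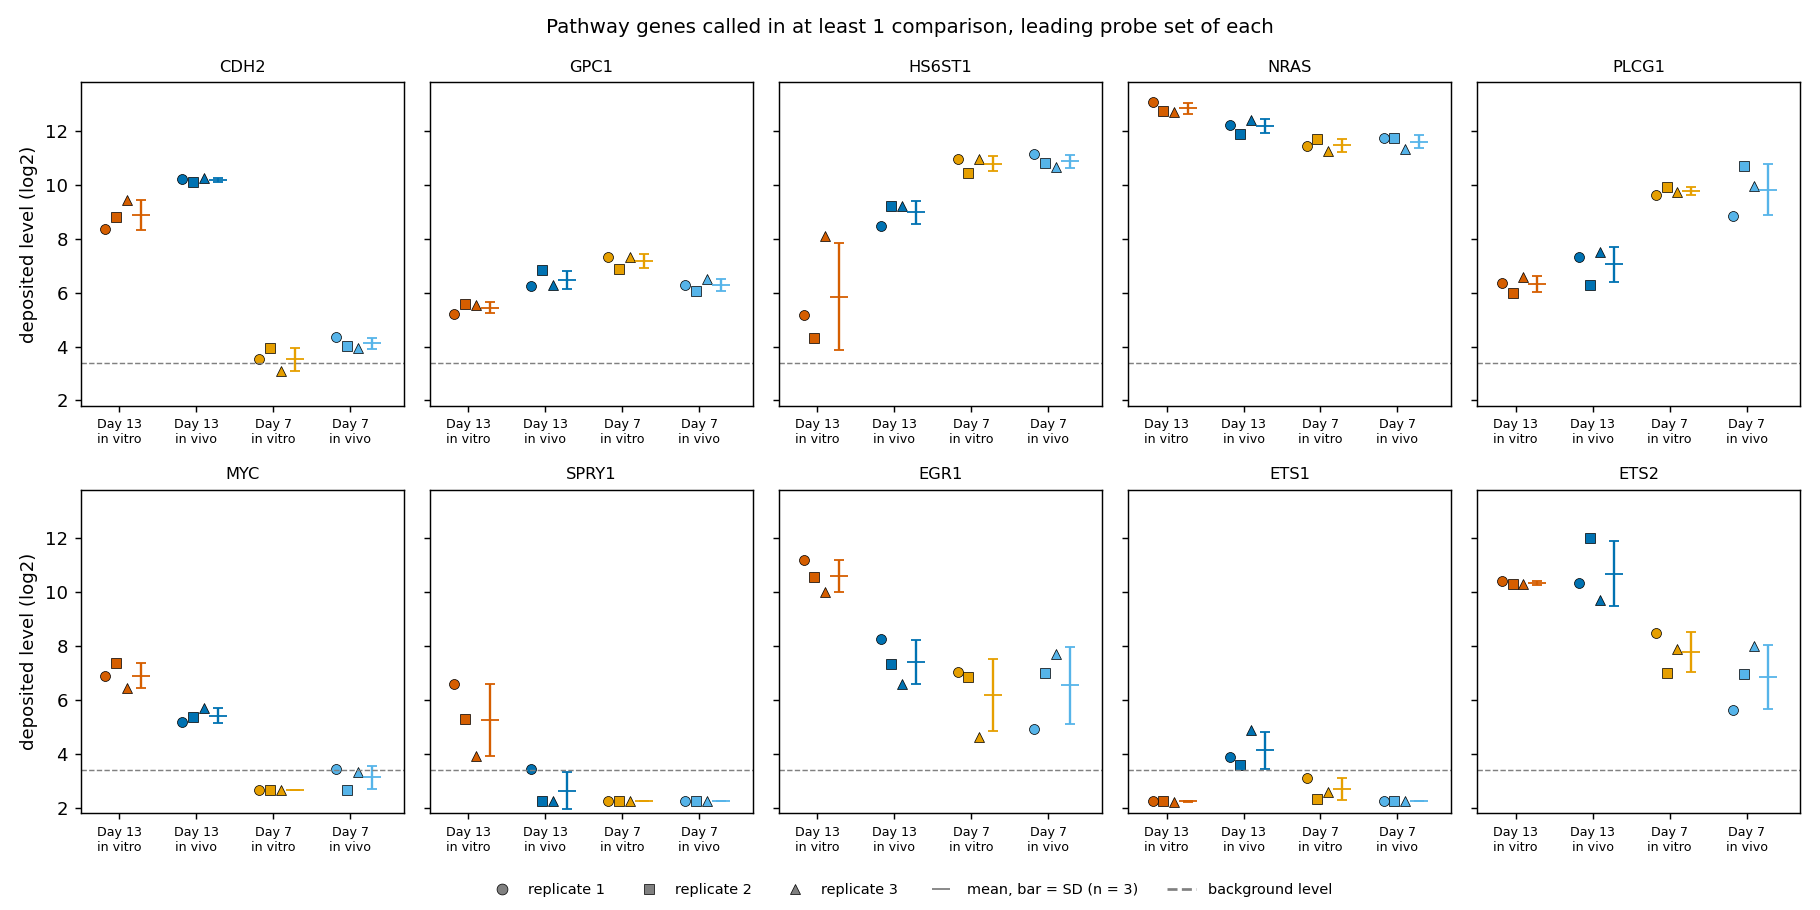
Deposited log2 level (vertical axis) of the 10 pathway genes called in at least 1 comparison, 1 panel each, in 3 pools of each of 4 groups, with mean and SD as bars and background as the dashed line. CDH2 and MYC are higher in all 6 Day 13 pools than in any Day 7 pool, and PLCG1 is lower in all 6. SPRY1 is above background only in the 3 Day 13 in vitro pools and in Day 13 in vivo pool 1.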

How the data were processed

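The deposited table holds 1 log2 value per probe set and array. The authors' processing notes, as submitted, name RMA, GCRMA and limma without versions. Which of RMA and GCRMA made the log2 values that the authors deposited, and the settings, are not given in the sources used here, and a deposited level has no counts or depth behind it, so the number of arrays limits the precision. The values were used as deposited, without the 112 control probe sets. GEO's platform annotation gave 13292 of the 24016 remaining probe sets 1 gene symbol, 86 several and 10638 none. Probe sets with several or no symbols were tested and not named.

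A limma fit (limma 3.58.1 in R 4.3.3, lmFit and eBayes, no trend) gave 4 group means over 12 arrays and 5 contrasts: the day effect in each origin, the origin effect at each day, and 1 day effect minus the other. Tests were two-sided on 8 residual degrees of freedom, with Benjamini-Hochberg adjustment over all 24016 probe sets, called at an adjusted p below 0.05. Background was the 99th percentile of 48 control probe sets. Log2 differences are as fitted. Where a called gene is at background in a whole group, a fold is given beside them as a bound, from the other group's mean to the background level. Each gene is led by its probe set with the highest mean, and the text names up to 3 called pathway genes with the smallest adjusted p in each direction of each contrast. Fits were tested on simulated data first. Figures were drawn with matplotlib 3.10.9.

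The members and all lists were chosen with earlier results of these data known. Nothing but the replicate label says that pools came from separate animals, so p-values measure the spread between these pools. Replicate numbers gave no clear pairing of the pools. Of 18 same-numbered pairs, 3 deviated together with a correlation above 0.1, and the range was -0.65 to 0.43. No array was closest to its own number in every other group at once. That rule is strict, so its count of 0 does not show that pairing was absent. The alternatives tried were quantile normalization, centring on 67 ribosomal protein genes, a filter on background, fits of the compared groups alone, an intensity trend, array weights, control signals as covariates, the replicate block and leaving out arrays. Sequences and genome positions were not used here.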

Additional observations from a re-analysis of the deposited data

Results flagged for a closer look

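The day effect of GPC1, the glypican gene, differed between origins by the fit's own test. The in vitro day effect minus the in vivo one was -1.92 (log2, SE 0.29, adjusted p = 0.0413, limma), from Day 13 and Day 7 means of 5.44 and 7.18 in vitro and of 6.45 and 6.27 in vivo. All 3 in vitro pools were lower at Day 13, and the in vivo pools overlapped. The call was lost, with the sign kept, without the 2 Day 13 in vitro pools with low poly-A control signal (-1.83, adjusted p = 0.109), with the poly-A mean as a covariate (-1.58, 0.228), after quantile normalization (-1.87, 0.051), with the GAPDH covariate (-1.73, 0.0532) and with the replicate block (-1.92, 0.135). After ribosomal centring it was -1.29 (0.0508). It held with array weights (-1.86, 0.00514), an intensity trend (-1.92, 0.0401) and a background filter (-1.92, 0.0223).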

How the results depend on the processing

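The increase of KLB with day in vitro stayed called under all alternatives on KLB probe set 1, and on probe set 2 under all but the poly-A covariate (3.91, adjusted p = 0.0501). Member probe sets called, 2 in each day comparison, were 1 in vitro with the poly-A covariate and 3 with the background filter, array weights or the GAPDH covariate. The filter kept KLB probe sets 1 to 3 only through Day 13 arrays, so its KLB calls are not support. In vivo the count was 1 from the compared arrays alone, without KLB probe set 2. It was 3 after ribosomal centring or with array weights. With the GAPDH covariate it stayed at 2, with FGF2 in place of KLB probe set 2. The in vivo KLB calls were fixed by the choice of KLB and are not a test. Leaving out 1 array gave 2 to 3 in both day comparisons. The next 2 comparisons use the in vivo arrays by which KLB was chosen, so KLB is left out of their counts. Between origins at Day 13, where none was called, array weights gave 2 (FGFR2 and FGF2). Leaving out Day 13 in vivo pool 2 gave 1 (FGF2). The day effect in vitro minus that in vivo (the day-effect difference), also with none, gave 1 (FGF2) under each of these 2 settings. Array weights (gene-by-gene method, as the default did not converge) were 0.26 to 5.44. The covariate for GAPDH and the fit without Day 13 in vitro pools 1 and 2 were added after seeing the data.

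Differences that were not called changed sign as follows. With array weights, FGFR2 (probe set 1) was -0.61 between days in vitro and 0.10 between origins at Day 7, FGFR4 was 0.29 between origins at Day 7, and SPRY2 was -0.23 for the day-effect difference. With the poly-A covariate, FGFR2 was 1.12 between origins at Day 13, 0.21 at Day 7 and 0.91 for the day-effect difference, FGFR4 was 0.0004 at Day 7 and 0.23 for the day-effect difference, and SPRY2 was -0.034 for that difference. With the GAPDH covariate, FGFR2 was 1.19 and SPRY2 0.71 at Day 7, and the day-effect difference was 0.091 for FGFR4 and -0.73 for SPRY2. Without Day 13 in vitro pools 1 and 2, FGFR2 was 0.28 between origins at Day 13 and 0.42 for the day-effect difference. After ribosomal centring, FGFR4 was 0.51 for that difference and SPRY2 -0.21 between days in vivo. Leaving out 1 array gave FGFR2 -0.54 to 0.38 between days in vitro and -0.49 to 0.13 between origins at Day 7. It gave FGFR4 -0.27 to 0.32 at Day 7 and -0.51 to 0.080 for the day-effect difference. It gave SPRY2 -0.14 to 0.78 between days in vitro, -0.61 to 0.99 in vivo, -1.51 to 0.096 between origins at Day 13 and -0.61 to 0.99 for the day-effect difference. The cause was not tested.

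Ribosomal centring moved the median of all probe sets by 0.15 and -0.48 between days in vitro and in vivo, by 0.11 and -0.52 between origins at Day 13 and Day 7, and by 0.63 for the day-effect difference. The share of calls that were higher was 20.2% with it and 44.8% without it in vivo, 28.6% against 62.0% at Day 7, and 73.7% against 36.5% for the day-effect difference. Quantile normalization gave 43.4% against 53.8% at Day 13 and 50.0% against 62.0% at Day 7.

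Over all probe sets, calls in the order day in vitro, day in vivo, origin at Day 13, origin at Day 7 and day-effect difference were 1804, 911, 288, 50 and 96 in the fit of the report. They were 197, 922, 9, 29 and 11 with the poly-A covariate, 6164, 1294, 3250, 258 and 1347 with array weights, 2886, 1478, 1215, 81 and 278 under the background filter, 2158, 1730, 700, 56 and 190 after ribosomal centring, 1798, 513, 174, 14 and 175 with the GAPDH covariate, and 902, 715, 459, 13 and 424 without Day 13 in vitro pools 1 and 2. From the compared arrays alone the first 4 were 787, 241, 0 and 3. Leaving out 1 array gave 913 to 2898, 676 to 951, 135 to 2058, 24 to 116 and 64 to 1083. With the replicate block they were 1212, 568, 119, 12 and 47, the member counts were 2, 2, 0, 0 and 0, and 6 pathway calls were lost. These were EGR1 in vitro (adjusted p = 0.0554), PLCG1 and ETS2 in vivo (0.0543 and 0.0874), MYC and ETS1 between origins at Day 13 (0.131 and 0.0809) and GPC1 for the day-effect difference (0.135).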
